A study of Mus musculus with 4 samples.

Results

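The cytosolic ribosomal protein genes encode the protein part of the ribosome outside mitochondria. They were taken here as every probe set whose array annotation gives a single gene symbol that is Rpsa, Rplp0, Rplp1 or Rplp2, or that starts with Rps or Rpl and a digit, without the S6 kinases and the pseudogenes. The rule found 49 probe sets of 35 genes among the 12488 probe sets of the array, 27 for 18 genes of the small subunit and 22 for 17 genes of the large subunit. The label fits the symbols, since each names a ribosomal protein or a close paralogue of one (Rpl7l1, Rpl39l, Rps27l and Rps4l).

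Mouse liver RNA was hybridised to 4 Affymetrix MG_U74Av2 arrays, 2 of control mice (WT7 and WT8) and 2 of mice labelled hepatic reductase null (N7 and N8). In the known mouse line of that name the gene of NADPH-cytochrome P450 oxidoreductase (Por) is deleted in hepatocytes by a Cre recombinase driven by the albumin promoter, so other liver cells keep it, but the labels give neither the construct nor strain, sex, age or treatment. The annotation named 0 probe sets for Por, so the genotype labels were not checked against it. Per the labels, each of 2 experiments used a pool of RNA from 3 animals of a genotype, while the control titles speak of a mouse. Whether an array is a pool or an animal is not settled, and p-values measure only the spread between these arrays.

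Each ribosome needs its proteins in nearly equal number, and a small subunit built on 18S rRNA joins a large subunit built on the other rRNAs. The mRNAs of ribosomal proteins are among the most abundant of a liver cell. They usually begin with a tract of C and T, the 5′ terminal oligopyrimidine or TOP tract, through which mTOR signalling controls their translation. A change in mRNA level therefore measures only a part of ribosomal protein supply.

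The annotated transcription starts of 3 tested members show such a tract, and these are printed because they share the element that groups this gene family. Each stretch runs 5′ to 3′ from 10 bases before the annotated start, and capitals mark the run of C and T that begins at the start (RefSeq, GRCm38.p6).
Rps10 (chr17:27635230-27635254, minus strand): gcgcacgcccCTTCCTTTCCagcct
Rps18 (chr17:33955651-33955675, minus strand): cacttccgctCTCTCTTCCacagga
Rps27 (chr3:90213634-90213658, minus strand): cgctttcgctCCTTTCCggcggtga
The tract has 10 bases in Rps10, 9 in Rps18 and 7 in Rps27. Of the 35 member genes, 28 had a start region in the table, and in 5 of them (17.9%) the first base was a C that opened a run of at least 5 bases of C or T on the gene's strand, against 3.01% of the 27025 genes of the table. Within 10 bases of the start on either side, such a run was found in 17 member genes (60.7%) and in 34.4% of all genes. The letters CCGGAAG, a core bound by ETS family factors, stood on either strand of the 250 bases before the start in 9 member genes (32.1%) and in 7.83% of all genes. These matches describe the sequences and are no test of binding or of tract use.

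Ribosomal protein mRNA differed little between control and null liver. Signals are fluorescence intensities that the authors scaled to total chip fluorescence, and a change is the mean log2 signal of the null arrays minus that of the control arrays. Of the 49 probe sets 29 were bright enough to be tested (a mean log2 signal above log2 of 16.8), and they stood for 26 genes, each represented by its brightest probe set. Of these 26 genes 0 were higher and 0 lower at an adjusted p under 0.05 in limma (Benjamini-Hochberg over all 7241 probe sets tested), where 0.309% of all tested genes were called higher and 0.0907% lower. By the unadjusted p of limma, 2 were higher (Rpl41 and Rps19) and 1 lower (Rps27) at p under 0.05, against 6.46% and 6.93% of all tested genes. Counted over the 29 tested probe sets, the calls were also 0 higher and 0 lower (0.304% and 0.0829% of all tested probe sets), with 2 and 1 at an unadjusted p under 0.05 (6.16% and 6.46%).

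The median change of the 26 genes was 0.06 on the log2 scale, beside -0.01 over all 5510 tested genes. Their changes ran from -0.48 to 0.33, with 14 positive and 12 negative, and their SD was 0.20 against 0.44 for all tested genes. The 95% interval of the change lay wholly within a 1.5-fold change in either direction for 20 of the 26 genes, which held for 32.3% of all tested genes. Over probe sets it was 22 of 29, against 30% of all tested. The 6 genes with wider intervals (Rpl22, Rpl32, Rpl7l1, Rps13, Rps27 and Rps4l) had no signal above 140.9. Both null signals lay above both control signals in 10 genes (20.9% of all tested genes) and below them in 5 (24% of all tested genes). With each array centred on its own median these counts were 3 and 7, and the median of the members was then -0.01. The direction of the median thus depends on the scaling. Such centring moves all genes of an array by a common amount, apart from signals at the floor, and the SD of the members stayed at 0.20. It therefore hardly moves the members relative to the other genes, and the shares of all genes under it are not given here.

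**Figure D1:**
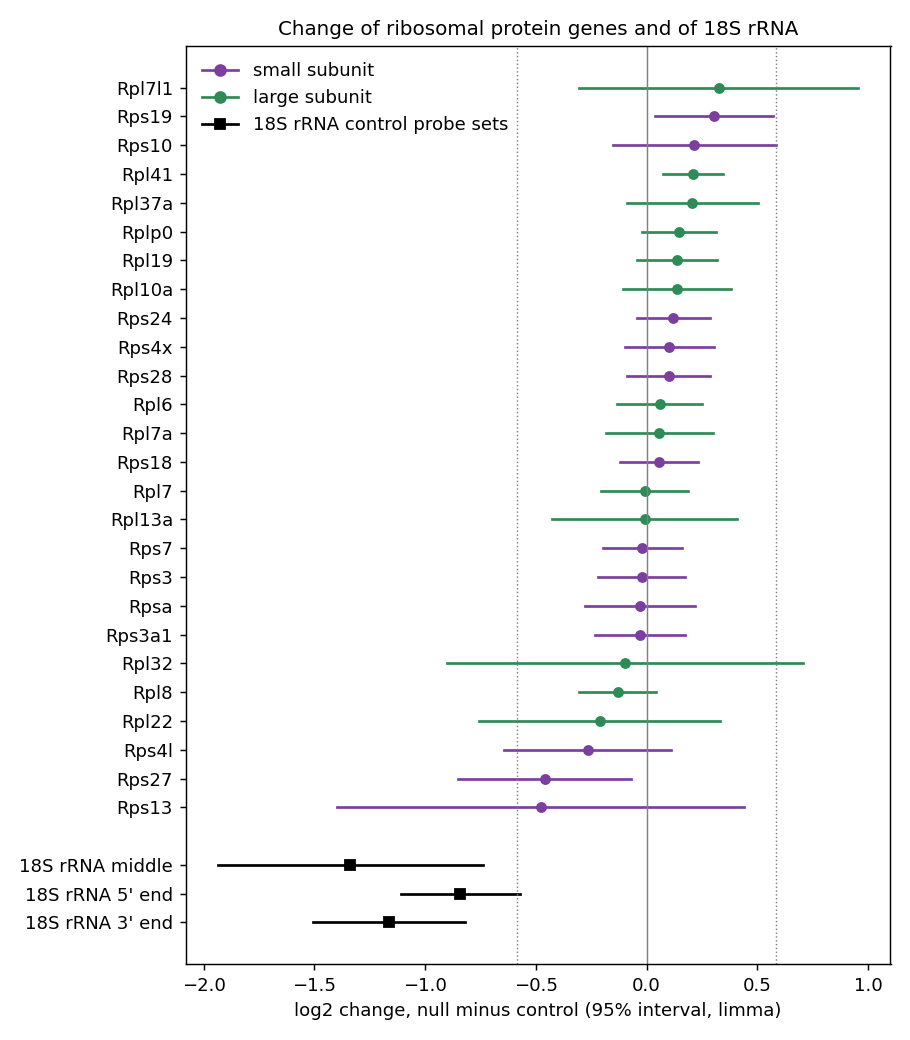
Log2 change, null minus control, of the 26 tested ribosomal protein genes (circles, small and large subunit in 2 colours) and of the 3 probe sets of 18S rRNA (squares), each with its 95% interval from limma, for 18S rRNA from a fit that added the control probe sets. The dotted lines mark a 1.5-fold change, and the ribosomal protein genes lie between -0.48 and 0.33 while 18S rRNA lies between -1.34 and -0.84.

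Brighter probe sets have narrower intervals, so the members were also set beside probe sets of like signal, with a bound of 1000 chosen after the values were seen. Among the 17 member probe sets with a mean signal above 1000, the median change was 0.10 and the SD 0.09, and among the 388 other probe sets above that bound the median was -0.01 and the SD 0.34. All 17 had intervals within a 1.5-fold change, as did 85.8% of the others. Both null arrays lay above both controls in 8 of the 17 (24.2% of the others) and below them in 2 (33% of the others). The others include probe sets whose several symbols name a ribosomal protein gene, so they are not free of this family. No test was made of these differences.

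**Figure D2:**
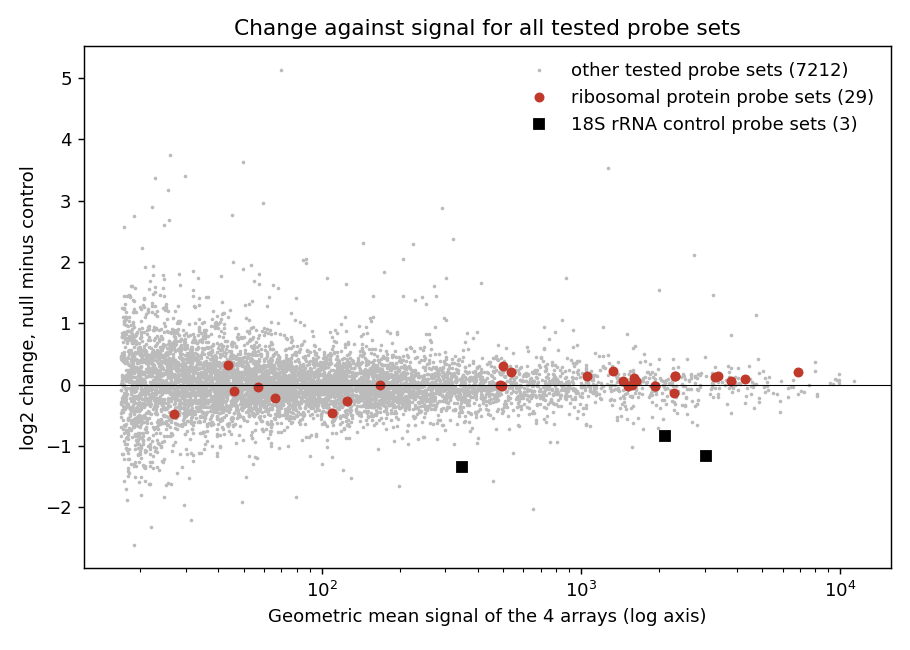
Log2 change, null minus control, against the geometric mean signal of the 4 arrays (log axis) for the 7241 tested probe sets, with the 29 ribosomal protein probe sets and the 3 probe sets of 18S rRNA marked. The bright ribosomal protein probe sets stay near 0, while the squares of 18S rRNA lie at -0.84 or lower.

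Among the small subunit mRNAs, those of Rps3, Rps7, Rpsa, Rps3a1 and Rps18 had changes between -0.03 and 0.06. Rps3, which lines the mRNA entry site, gave 1575 and 1494 in control liver and 1502 and 1521 in null liver, a change of -0.02 ± 0.08 (log2, SE) with an interval of -0.22 to 0.17. The groups overlapped. Rps7, a protein of the subunit body that helps process its rRNA, gave 1961 and 1940 in control and 1934 and 1917 in null liver. Both null signals were lower, by a change of -0.02 ± 0.08 (adjusted p = 0.95). Rpsa, known also as the laminin receptor, gave 499 and 504 in control and 491 and 493 in null liver, a change of -0.03 ± 0.10. Rps3a1, the mouse gene of protein S3a, gave 1947 and 1942 against 2009 and 1807, so the 2 null arrays lay on either side of the controls (-0.03 ± 0.09). Rps18, which sits in the head of the subunit, gave 3665 and 3751 against 4037 and 3688, a change of 0.06 ± 0.07.

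Rps10, a protein near the mRNA entry that is ubiquitylated when ribosomes collide, gave 1209.9 and 1265 in control liver and 1695 and 1218 in null liver. Only null replicate 7 stood out, the change was 0.22 ± 0.15 (adjusted p = 0.614), and without that array it was -0.02. Rps28, which lies at the mRNA exit, was read by 3 tested probe sets. Its brightest gave 4176 and 4145 in control and 4743 and 4190.4 in null liver, a change of 0.10 ± 0.08. Another bright one gave 0.15 ± 0.10. The third was dim, at 49 and 67.1 against 71.9 and 43.8, and gave -0.03 ± 0.30 with an interval of -0.75 to 0.69. The bright ones share a sign, the dim one leaves its direction undecided, and none passed. Rps13 was read by a dim probe set at 26.3 and 38.3 against 27.3 and 19, whose interval of -1.40 to 0.44 leaves its direction undecided.

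Rps19, the gene most often mutated in Diamond-Blackfan anaemia, a failure of red cell formation, gave 429 and 473 in control and 546 and 567 in null liver (means 451 ± 30.9 and 557 ± 14.8, SD, n = 2 each). Both null arrays were above both controls, a change of 0.31 ± 0.11 (1.24-fold, interval 0.04 to 0.57) that missed the threshold (adjusted p = 0.337). Rps24, another gene of that anaemia, gave 3141 and 3201 against 3521 and 3377. It was higher on both null arrays, by 0.12 ± 0.07 (adjusted p = 0.525). But its probe set and that of Rpl7 below are annotated with the same source sequence, so the name of one of them is uncertain. The other probe set of Rps24, from its own source sequence, was too dim to test, at 12.1 and 14.9 against 17.7 and 11.3. So was the other one of Rpl7, at 12 and 1.7 against 2.8 and 8.4.

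Rps27 and Rps4l were lower on both null arrays. Rps27, a zinc-binding protein of the small subunit, gave 125 and 132 in control and 99 and 88.4 in null liver (means 129 ± 4.74 and 93.7 ± 7.50, SD, n = 2 each). Its change of -0.46 ± 0.16 (interval -0.85 to -0.07) did not pass (adjusted p = 0.316) and lay between -0.54 and -0.38 as each array was left out. Rps4l, a copy of Rps4x outside the X chromosome, gave 141 and 134 against 108 and 121, a change of -0.27 ± 0.16 (adjusted p = 0.54). A dimmer probe set of Rps4l, which was not tested, gave 18.1 and 20.9 in control and 9.4 and 5.1 in null liver, so both probe sets of this gene were lower on both null arrays. The X-linked Rps4x gave 1482 and 1602 against 1664 and 1646, a change of 0.10 ± 0.08 in the other direction. Whether the paralogues differ in their response was not tested, and probe sets of close copies can bind each other's transcripts.

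**Figure D3:**
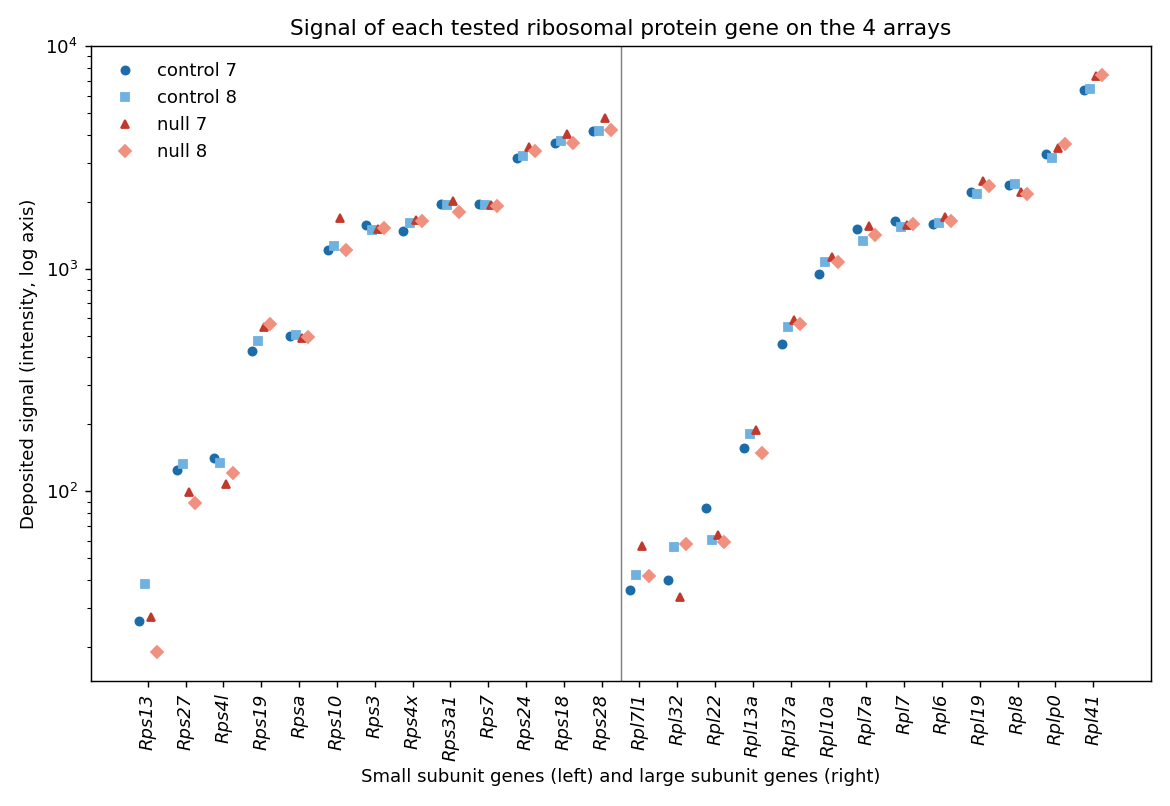
Deposited signal (log axis) of each of the 26 tested ribosomal protein genes on control arrays 7 and 8 (blue) and null arrays 7 and 8 (red), with 13 small subunit genes on the left and 13 large subunit genes on the right, ordered by control signal within each side. The 4 points of most genes nearly coincide, and Rps27 shows both null points below both control points.

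Among large subunit genes, Rpl41 had the smallest p of all members. Rpl41, the shortest ribosomal protein, gave 6354 and 6451 in control and 7379 and 7437 in null liver (means 6403 ± 69 and 7408 ± 41.2, SD, n = 2 each). The groups were well apart relative to their spread, yet the change was small, 0.21 ± 0.06 or 1.16-fold, and its adjusted p was 0.206. Leaving out each array in turn gave 0.20 to 0.22, with adjusted p between 0.232 and 0.733. Rplp0, the base of the stalk that recruits translation factors, gave 3262 and 3150 against 3471 and 3625. It too was higher on both null arrays, by 0.15 ± 0.07 (adjusted p = 0.449).

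Rpl19, a protein that bridges the subunits, gave 2224 and 2173 in control and 2488 and 2355 in null liver, a change of 0.14 ± 0.08. Rpl10a, which forms the mobile L1 stalk by the tRNA exit, gave 944 and 1069.7 against 1134 and 1078. Both were higher on both null arrays. A further probe set of Rpl10a had a change of 0.00 ± 0.12, beside 0.14 ± 0.10 for the brightest. Rpl37a, a small zinc-binding protein, gave 458 and 545 against 588 and 564 (0.21 ± 0.12, adjusted p = 0.55). Rpl6 gave 1597 and 1605 against 1704 and 1632, a change of 0.06 ± 0.08.

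Rpl8 was the only tested large subunit gene with both null arrays below both controls. Rpl8, which lies beside the peptidyl transferase centre, gave 2390.4 and 2406 in control and 2219.5 and 2161 in null liver. The change was -0.13 ± 0.07 (adjusted p = 0.517). For Rpl7, Rpl7a and Rpl13a the groups overlapped. Rpl7 gave 1635 and 1538 against 1568 and 1587 (-0.01 ± 0.08), and Rpl7a gave 1515 and 1339 against 1556 and 1413 (0.06 ± 0.10). Rpl13a, which can leave the ribosome to silence inflammatory mRNAs, gave 157 and 181 against 188 and 149 (-0.01 ± 0.17).

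The remaining large subunit genes were dim. Rpl22, which is known to repress its own paralogue's mRNA, gave 83.9 and 60.2 against 63.6 and 59.2, a change of -0.21 ± 0.23. Rpl32 gave 39.9 and 56.2 against 33.6 and 58.2, and it differed more within each genotype than between them (-0.10 ± 0.34). Rpl7l1, a paralogue of Rpl7, gave 36.1 and 42 against 56.8 and 41.9. Its change of 0.33 ± 0.27 was the largest positive one and had an interval of -0.31 to 0.96.

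By subunit, the median change was -0.02 over the 13 small subunit genes (6 positive, 7 negative) and 0.06 over the 13 large subunit genes (8 positive, 5 negative). Both null arrays lay above both controls in 4 small and 6 large subunit genes (20.9% of all tested genes) and below them in 4 and 1 (24% of all tested genes). The difference between the subunits was not tested. The median log2 deviation from each gene's own mean over the 26 genes was -0.04 in control replicate 7, -0.02 in control replicate 8, 0.06 in null replicate 7 and -0.01 in null replicate 8, so null replicate 8 lay level with control replicate 8. Of the 26 genes 18 were higher on null replicate 7 than on null replicate 8, where 46.3% of all tested genes were. Without null replicate 7 the median change of the members was -0.0029 and without null replicate 8 it was 0.11.

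The other 20 member probe sets were too dim to test, with signals from 0.9 to 36.8, and 6 of them lay at or below the floor of 7.1 on all 4 arrays. They include 4 further probe sets of Rps4x, the sole probe sets of Rpl35a, Rpl39, Rpl39l, Rps14, Rps15, Rps20 and Rps27l and both probe sets of Rpl38 and of Rps29, so 9 genes have no tested probe set. Several of these genes are known as abundant in every cell, and the low signals are given here as read, with no statement on their mRNA. A further 39 probe sets carry several symbols that include a ribosomal protein gene and are not named. Of these, 35 were tested and 0 passed in limma in either direction. Their median change was 0.02, with 10 above and 2 below both controls on both null arrays, where 20.4% and 23.4% of all tested probe sets were. Of the ribosomal proteins fused to a ubiquitin-like part, Fau was read at 15.8 and 9.1 against 3.5 and 18.2 and not tested.

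The control probe sets of 18S rRNA, the RNA of the small subunit, were lower on both null arrays. The probe set of the 3′ end gave 4722 and 4365 in control liver and 2374 and 1729.8 in null liver. That of the 5′ end gave 3025 and 2637 against 1715 and 1449.8, and that of the middle gave 644 and 474 against 278 and 172. The groups did not overlap in any of the 3. The null means were 44.6%, 55.8% and 39.6% of control for the 3′ end, the 5′ end and the middle, or changes of -1.16, -0.84 and -1.34 on the log2 scale. Arrays of a genotype differed by 0.11 to 0.44 (control) and 0.24 to 0.69 (null) on the same scale, less than the genotypes did. No member lay as low as -0.84, and 2.45% of 7279 probe sets did.

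The 18S probe sets are manufacturer's controls and stood outside the comparison of all probe sets. Fitted together with the others, a step chosen after the values were seen, the 3′ end (-1.16 ± 0.14, adjusted p = 0.0343 in limma) and the 5′ end (-0.84 ± 0.11, adjusted p = 0.0421) passed and the middle did not (-1.34 ± 0.25, adjusted p = 0.0946). The change was negative in all 12 alternative settings of this fit for each of the 3, with adjusted p from 0.00288 to 0.349 for the 3′ end, from 0.0139 to 0.362 for the 5′ end and from 0.0145 to 0.399 for the middle. The call of the 3′ end was lost when control replicate 7 (adjusted p = 0.18) or 8 (0.12) was left out, and that of the 5′ end when any array was left out (0.282 and 0.12 for control 7 and 8, 0.0562 and 0.11 for null 7 and 8). Both calls were also lost with the floor at the 50th percentile (0.257 for each) and without an intensity trend (0.349 and 0.362). The cDNA was primed with oligo(dT), per the labels, and rRNA has no long poly(A) tail, so these signals are no measure of the rRNA content of liver.

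Control probe sets of β-actin, Gapdh and CreX differed less. The 3′ end of β-actin gave 5027 and 5043 in control and 5496 and 5509.6 in null liver (0.13), and that of Gapdh gave 4384 and 4629 against 4487 and 4608 (0.01). The ratio of the 3′ to the 5′ signal, a sign of RNA integrity, was 1.48 and 1.52 in control and 1.56 and 1.37 in null liver for β-actin, and the groups overlapped. For Gapdh it was 1.28 in both control samples and 1.23 and 1.13 in null liver. For 18S rRNA it was 1.56 and 1.66 in control and 1.38 and 1.19 in null liver, so both of these ratios were lower on both null arrays. Since rRNA has no long poly(A) tail, the ratio of 18S rRNA is not read as a sign of integrity. The bacterial spike-in CreX, added to each sample, gave 4712 and 4722 against 5163 and 4679.7 at its 3′ end. The part of RNA integrity or sample preparation in the 18S difference was not tested.

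**Figure D4:**
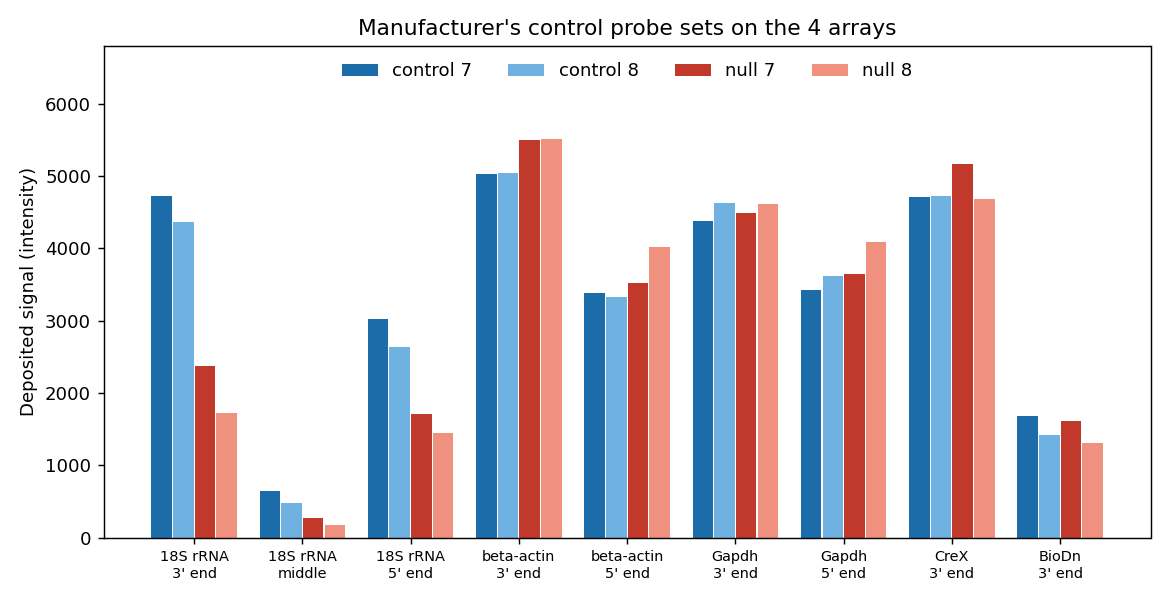
Deposited signal of the manufacturer's control probe sets for 18S rRNA, β-actin, Gapdh and the spike-ins CreX and BioDn, with 1 bar per array. The 3 sets of 18S bars are lower on both null arrays, at 39.6% to 55.8% of control, while the 3′ end of Gapdh differs by 0.01 on the log2 scale.

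Genes that work with the ribosome also showed no member past the threshold, which 0.309% of all tested genes passed as higher and 0.0907% as lower. At an unadjusted p under 0.05, the count given for each list below, 6.46% of all tested genes were higher and 6.93% lower. Of 59 tested mitochondrial ribosomal proteins 0 were higher and 0 lower over all probe sets in limma (median change 0.03, with 4 higher and 0 lower at an unadjusted p under 0.05). Mrpl54 had the smallest p among those with a positive change, at 20.5 and 16.4 in control and 39 and 39.3 in null liver (1.09 ± 0.34, adjusted p = 0.261), and Mrpl39 among those with a negative change, at 121 and 148 against 93.3 and 109 (-0.41 ± 0.18). Both are proteins of the large mitochondrial subunit.

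Of 27 tested initiation factors 0 passed in limma, 18 had a negative change and the median was -0.05, with 0 higher and 3 lower at an unadjusted p under 0.05. Eif5, which triggers GTP hydrolysis at the start codon, gave 418 and 456 in control and 308 and 267 in null liver, a change of -0.61 ± 0.13 (adjusted p = 0.131). Eif2s3x, the X-linked gamma subunit of the factor that brings the initiator tRNA, gave 516 and 517 against 394 and 352 (-0.47 ± 0.12, adjusted p = 0.168). Both were lower on both null arrays. Eif4a1, an RNA helicase of initiation, gave 95.3 and 102 against 109.5 and 159 (0.42 ± 0.21, adjusted p = 0.479). The list of elongation and release factors also holds Tpt1 and the kinase Eef2k, which are neither. Of its 9 tested genes 0 passed in limma (0 higher and 1 lower at an unadjusted p under 0.05), and the median was -0.01. Gspt1, a release factor, gave 389 and 365 against 250.3 and 317 (-0.42 ± 0.15, adjusted p = 0.327).

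Of 17 tested mRNAs outside the ribosome known to carry a TOP tract, a list that shares members with those of the factors, 0 passed in limma, with 0 higher and 2 lower at an unadjusted p under 0.05, and the median was -0.02. Tpt1, the translationally controlled tumour protein, gave 4253 and 4913 in control and 5192 and 5212 in null liver (0.19 ± 0.08, adjusted p = 0.427). Of 38 ribosome biogenesis genes 0 passed in limma (1 higher and 0 lower at an unadjusted p under 0.05), and the median was -0.04. Bysl, an assembly factor of the small subunit, gave 62.5 and 61.3 against 91 and 82.2 (0.48 ± 0.18, adjusted p = 0.346), and Emg1, which methylates 18S rRNA, gave 251 and 223 against 206 and 181 (-0.29 ± 0.15). Of 15 genes of mTOR and S6 kinase signalling 0 passed in limma (0 higher and 1 lower at an unadjusted p under 0.05), 10 had a negative change and the median was -0.12. Eif4ebp2, a repressor of cap-dependent initiation, gave 1119 and 1222 against 889 and 727 (-0.54 ± 0.12, adjusted p = 0.147), while Mtor itself gave 152 and 162 against 201 and 169.8 (0.24 ± 0.16).

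**Figure D5:**
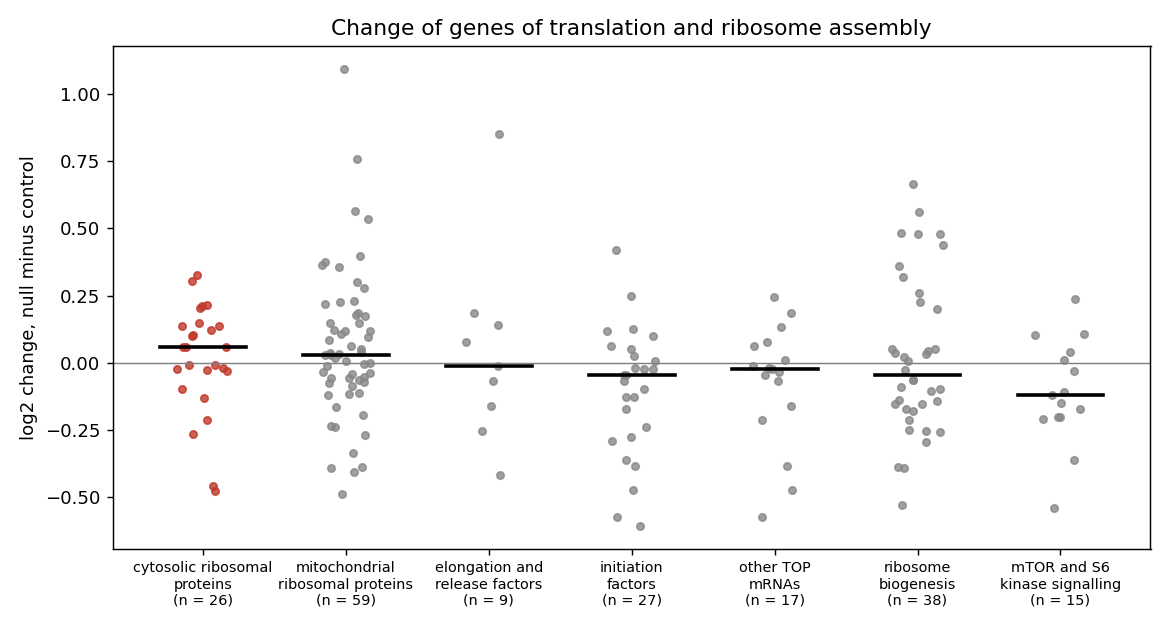
Log2 change, null minus control, of each tested gene of the cytosolic ribosomal proteins (26) and of 6 related lists, with the list's median as a bar; the lists share genes. The medians lie between -0.12 and 0.06, and the cytosolic ribosomal proteins spread from -0.48 to 0.33.

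Hepatocyte markers were abundant on all arrays, with a summed signal of 65647 and 65379.6 over 14 tested genes in control and 63138 and 60988 in null liver. Of these 14 genes 4 had a positive and 10 a negative change, 9 lay below both controls on both null arrays, and 0 passed in limma, with 1 higher and 6 lower at an unadjusted p under 0.05. For the marker counts in this paragraph the shares of all tested genes were 0.309% higher and 0.0907% lower past the threshold, 6.46% and 6.93% at an unadjusted p under 0.05, and 24% below both controls. The summed signal of 16 macrophage markers was 3595 and 3526 in control and 4458 and 4785 in null liver (13 with a positive and 3 with a negative change, 1 higher and 0 lower in limma, with 6 and 0 at an unadjusted p under 0.05). That of 13 stellate cell and fibroblast markers was 1839 and 1969.9 against 2344 and 2736 (12 positive, 1 negative, 0 passed in limma, with 6 higher and 0 lower at an unadjusted p under 0.05). The 2 tested erythroid markers summed to 7603 and 7216 in control and 6100.2 and 5802 in null liver, with 0 calls in limma and 2 lower at an unadjusted p under 0.05. Pancreatic acinar markers, of which 8 of 17 listed were tested, summed to 377 and 537 in control, 3274 on null replicate 7 and 417 on null replicate 8. All 8 had a positive change, and 0 passed in limma, with 1 higher and 0 lower at an unadjusted p under 0.05. Prss2 (2.3 and 9.3 against 521.7 and 4.7) passed the brightness filter only through null replicate 7, so the filter favours a high sum there. Reg1 was higher on both null arrays, at 5.7 and 11.8 against 142 and 65.4. Both its control signals lay below the bound of the filter, so it was tested only because of its null signals. With such control signals, Prss2 and Reg1 could enter the tested markers only with a positive change. Reg1 is also the acinar marker counted as higher at an unadjusted p under 0.05 in limma, so that count is not independent of the filter. No signal of the table was 0 for any marker. In bulk liver, more cells of a type and more RNA per cell cannot be told apart, and the part of these cells in the ribosomal protein signals was not tested.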

How the data were processed

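The deposited values are linear intensities of probe sets that the authors obtained with GCOS from perfect match and mismatch oligonucleotides, with scaling to the total fluorescence of the chip, per the labels; the version is not given in the sources used here. Signals below 7.1, the 25th percentile, were raised to that floor and log2 was taken without further normalisation. Probe sets with a mean log2 signal above log2 of 16.8 (40th percentile) were tested, 7241 of the 12422 that are not controls, with limma 3.58.1 in R 4.3.3 (lmFit, eBayes with an intensity trend), two-sided, genotype as the only term, Benjamini-Hochberg threshold 0.05. Array-based spread gave 2 degrees of freedom and the pooled prior 4.78. An exact permutation test of 2 against 2 cannot go below p = 0.333. Precision is limited by the 4 arrays, and the labels name no batch. Symbols came from the platform annotation, updated through the RefSeq gene table of GRCm38.p6; 10833 probe sets carried 1 symbol, 396 several and 1193 none. A gene was represented by its brightest tested probe set. The members, lists and rules were chosen with earlier results of these data known. Named genes were members past the threshold, the 5 largest changes each way without overlap, preset symbols (stalk, paralogue and anaemia genes among them) and the smallest p each way per list; the other tested members are named too. Steps were tested on simulated data. Probe sets ending in _f_at, _r_at, _s_at, _i_at or _g_at (9 of the tested members) can bind related transcripts. Alternatives were another normalisation, floor, filter or variance model, a replicate block and each array left out.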

Additional observations from a re-analysis of the deposited data

How the results depend on the processing

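No ribosomal protein probe set was called higher or lower in limma (0 and 0) under any alternative run, and none of the 26 member genes crossed the threshold. The median of the members moved to -0.014 with median centring (small subunit -0.090, large subunit -0.012), 0.10 with spike-in scaling, an alternative added after seeing the data, and 0.00 without the filter, and it lay between -0.0029 and 0.11 as single arrays were left out (small subunit -0.024 to 0.047, large subunit 0.068 to 0.13). Both null arrays lay above both controls in 10 of the 29 member probe sets (34.5%), where 20.4% of all tested probe sets did. This count was 3 with median centring and 11 to 19 with an array left out. With the several-symbol probe sets added it was 20 of 64 (31.25%), not a larger share. Both lay below in 5 (17.2%, against 23.4% of all tested), which became 2 with spike-in scaling and 6 to 10 with an array left out. A lone array in a group makes overlap rarer for any probe set. The shares of all probe sets under these alternatives are not given. The counts under them therefore cannot tell whether the members moved apart from other probe sets. The calls over all probe sets, 22 higher and 6 lower, became 42 and 14 with spike-in scaling, 37 and 15 with a replicate block, 0 and 0 with the floor at the 50th percentile, without the filter or without an intensity trend, and 12 to 16 and 0 to 4 with an array left out; 12 were lower with quantile normalisation and 15 with the filter at the 60th percentile. Same-numbered arrays did not deviate together (correlation of the pair differences -0.03 over 7241 probe sets), so the numbers 7 and 8 are not taken as pairs. Of the 26 member genes 12 changed sign somewhere, and none of them passed the threshold in any setting. With quantile normalisation Rps18 was at -0.017, Rps3 at 0.0053 and Rps7 at 0.0027; with median centring Rpl6 was at -0.012, Rpl7a at -0.013 and Rps18 at -0.014; with spike-in scaling Rpl13a was at 0.037, Rpl7 at 0.038, Rps7 at 0.027, Rps3 at 0.024, Rps3a1 at 0.016 and Rpsa at 0.018. With an array left out the ranges were -0.18 to 0.16 for Rpl13a, -0.45 to 0.028 for Rpl22, -0.051 to 0.037 for Rpl7, -0.031 to 0.15 for Rpl7a, -0.50 to 0.30 for Rpl32, -0.022 to 0.45 for Rps10, -0.0075 to 0.12 for Rps18, -0.060 to 0.017 for Rps3 and -0.11 to 0.047 for Rps3a1. The 18S changes stayed negative, from -1.39 to -0.94 (3′ end), -0.96 to -0.72 (5′ end) and -1.68 to -0.99 (middle) with an array left out. With an array left out, the lone array of its group is assumed to vary like the other group. The causes of these shifts were not tested. Dim members have wide intervals, and signals near the floor understate changes.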
